A study of Mus musculus with 2 samples.

Results

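The genes described here encode the extracellular part of Wnt signalling: the Wnt ligands, the Frizzled receptors and their Lrp5 and Lrp6 co-receptors, the secreted proteins that block them, and a few genes that report or carry the signal in the nucleus. A gene was a member if a probe set of the deposited table named it alone and it was a numbered Wnt, Fzd, Dkk or Sfrp gene, or Frzb, Wif1, Sost, Sostdc1, Lrp5, Lrp6, Axin2, Lef1 or Tcf7. Of 46 genes that fit this rule in RefSeq, 45 were found among the 19938 genes of the table, and Tcf7 is not analysed here. The 45 members comprised 19 Wnt ligands, 10 Frizzled receptors, 2 co-receptors, 12 secreted antagonists, and Axin2 and Lef1. Each had a single probe set except Wnt4, which had 2. The rule names genes by symbol and not by their values.

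The study compared mandibles of fetal BALB/c mice at E18.5 (late fetal life), to ask what skeletal muscle contributes to the jaw. The control sample was wild type and the other was null for Myf5 and Myod on the BALB/c background, written Myf5-/-:MyoD-/- in the labels. These factors commit cells to skeletal muscle, and fetuses without both lack it. Total RNA of each was hybridised to 1 Affymetrix array, so each genotype has a single array, no difference has a replicate check and no test between genotypes is possible. The number of fetuses behind either sample is not stated in those labels.

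Wnt proteins are lipid-modified signals that bind Frizzled receptors on nearby cells. With Lrp5 or Lrp6 they stabilise beta-catenin, which acts with Lef1 and Tcf factors on target genes, whereas other Wnt proteins act through planar polarity and calcium routes without it. Dkk and Sost proteins occupy the co-receptors, and Sfrp, Frzb and Wif1 proteins bind the ligands themselves. In the skeleton, beta-catenin signalling favours bone formation over cartilage, sclerostin (Sost) from osteocytes restrains bone mass, and in teeth and oral epithelium the balance of Wnt ligands and antagonists is known to set where teeth form.

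Values are the deposited log2 signals of a probe set. Signals of different probe sets do not rank genes against each other, so each gene is compared only with itself. Sums over marker lists add deposited linear signals, weighted to the brightest probe sets, and are given only as a ratio of the same probe sets between the arrays. The floor below which a signal was not used was the median of all probe sets with an annotated gene, at 6.18 for the wild type and 6.19 for the double knockout. A gene above it on at least 1 array is called measured, and a lower value was raised to the floor, so that a gene raised to the floor in one genotype gives only a lower bound on its difference. The direction of such a difference follows from this rule and is not a result. Of the 45 members, 31 were measured, 29 of them with both values above the floor, and 14 had neither value above it. Every difference subtracts the wild-type log2 value from that of the double knockout. The only error that could be measured is how far probe sets of 1 gene disagreed in their differences on these arrays. Over 532 genes the gap between such differences had an SD of 0.23, called the probe-set SD. It describes a gap between differences and not the error of a single difference, so it serves only as a rough yardstick. The probe-set SD also leaves out the variation between animals and between hybridisations.

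No measured member was 2-fold apart between the arrays, in either direction, whereas 0.510% of the 10393 measured genes were higher by that fold and 2.73% were lower by it. At 1.5-fold, 4 of 31 members were higher, where 3.07% of all measured genes were. These 4 were all secreted antagonists: Dkk1, Sost, Wif1 and Sostdc1. In the other direction 1 member of 31 was at least 1.5-fold lower, the receptor gene Fzd9, against 5.11% of all measured genes. By sign alone, 24 members were higher in the double knockout and 7 lower, where 67.0% of all measured genes were higher and 32.2% lower. Of the 24, Wnt3a and Wnt10b exceeded the floor only in the double knockout, which fixed their direction as higher. Once the arrays were centred on the median of all genes (0.098 subtracted from each difference), the members split into 18 higher and 13 lower, and 1 of the antagonists, Dkk1, was still 1.5-fold higher. The median difference was 0.29 over the 31 members and 0.098 over all measured genes.

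**Figure D1:**
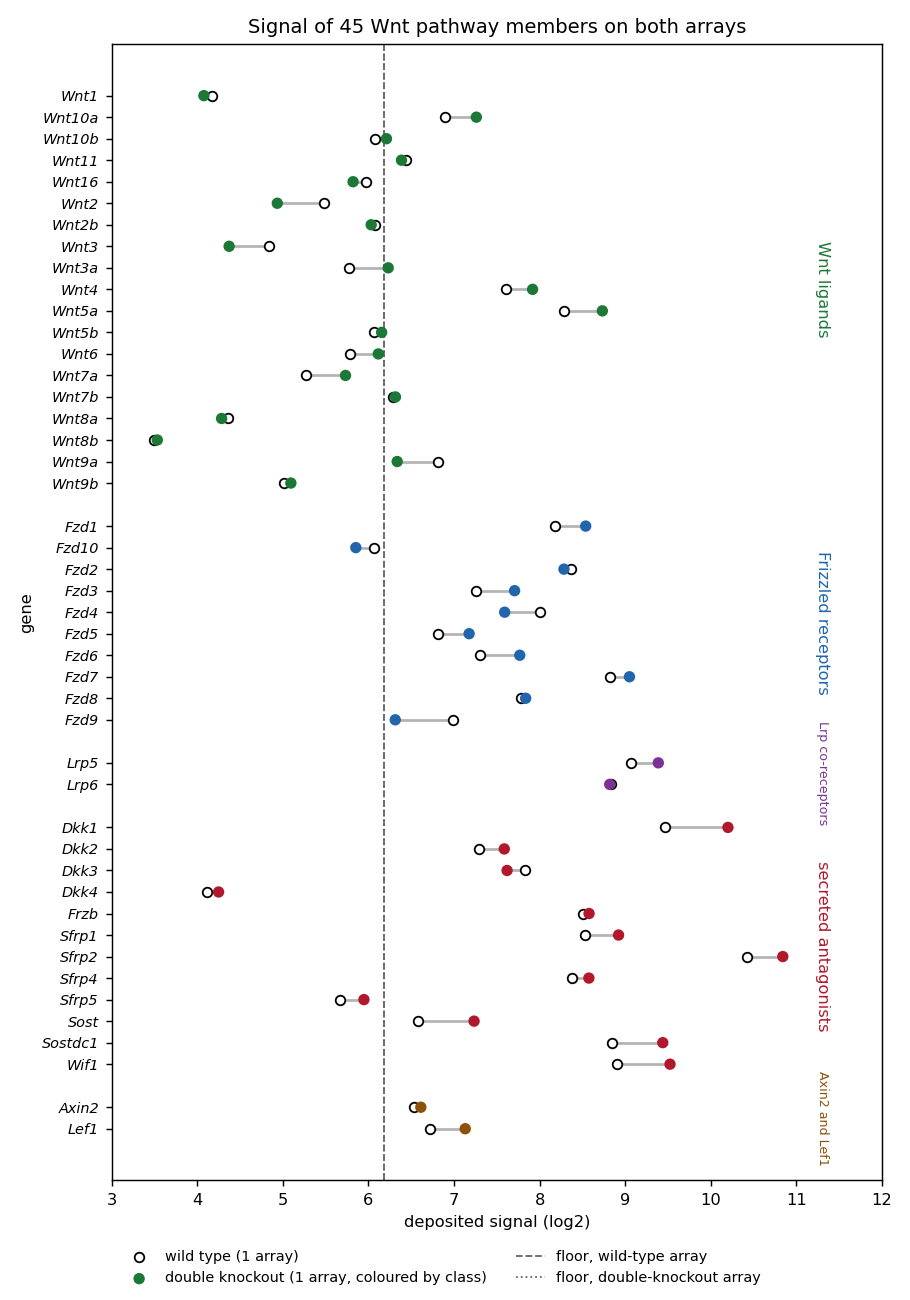
Deposited log2 signal (horizontal axis) of the 45 members (rows, grouped by class) on the wild-type array (open circles) and the double-knockout array (filled circles), with the floor of each array as vertical lines at 6.18 and 6.19. Of the 19 ligands, 11 lie left of the floor on both arrays, while most filled circles of the antagonists lie right of the open ones.

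The stretches before the start sites of the 3 antagonist genes above 1.5-fold that RefSeq's promoter table holds, and of the 2 members with the largest lower differences, Fzd9 and Wnt9a, are shown so that the members that stood apart can be read as sequence. Each is the 250 bases before the start in GRCm38.p6, written 5′ to 3′ on the strand of the gene. Capitals mark matches to the motifs described after them.
Dkk1, chr19:30549497-30549746, minus strand: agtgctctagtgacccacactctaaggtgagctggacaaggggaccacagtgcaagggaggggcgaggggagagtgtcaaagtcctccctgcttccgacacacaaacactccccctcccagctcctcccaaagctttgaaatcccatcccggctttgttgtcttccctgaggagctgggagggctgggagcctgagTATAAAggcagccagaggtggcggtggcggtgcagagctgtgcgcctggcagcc
Wif1, chr10:121033754-121034003, plus strand: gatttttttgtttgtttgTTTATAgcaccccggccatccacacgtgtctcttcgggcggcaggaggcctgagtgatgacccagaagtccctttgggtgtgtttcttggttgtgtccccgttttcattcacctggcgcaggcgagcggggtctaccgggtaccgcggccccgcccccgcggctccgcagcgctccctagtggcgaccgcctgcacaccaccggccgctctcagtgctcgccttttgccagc
Sost, chr11:101967016-101967265, minus strand: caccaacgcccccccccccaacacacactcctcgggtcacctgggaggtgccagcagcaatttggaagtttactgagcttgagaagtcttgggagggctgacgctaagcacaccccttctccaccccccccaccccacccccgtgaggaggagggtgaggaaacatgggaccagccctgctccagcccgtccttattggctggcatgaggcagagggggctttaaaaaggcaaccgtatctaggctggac
Fzd9, chr5:135251048-135251297, minus strand: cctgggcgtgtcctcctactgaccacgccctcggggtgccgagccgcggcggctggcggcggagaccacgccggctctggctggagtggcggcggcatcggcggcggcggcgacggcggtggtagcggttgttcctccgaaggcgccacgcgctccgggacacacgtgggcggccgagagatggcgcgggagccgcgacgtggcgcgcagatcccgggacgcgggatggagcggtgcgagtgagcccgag
Wnt9a, chr11:59306680-59306929, plus strand: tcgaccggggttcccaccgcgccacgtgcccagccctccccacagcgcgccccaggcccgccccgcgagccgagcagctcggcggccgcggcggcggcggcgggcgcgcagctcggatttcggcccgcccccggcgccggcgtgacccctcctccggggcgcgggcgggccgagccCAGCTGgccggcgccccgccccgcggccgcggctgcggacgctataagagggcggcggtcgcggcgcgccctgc

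Both strands of each window were searched for 4 motifs. These were CTTTGAT for TCF/LEF factors (the nuclear partners of beta-catenin), TGTGGTT for RUNX factors (regulators of bone cells), the palindrome CAGCTG (an E-box bound by myogenic factors such as MyoD) and TATAAA, the TATA box. The TCF/LEF letters were present in 3.21% of all 32851 promoter windows of the same length and in none of the 5 shown. RUNX letters occurred in 4.40% of all windows and in none of the 5. The E-box was present in 13.0% of all windows and, of the 5, in Wnt9a alone, from 74 to 69 bases before the start. TATAAA was present in 12.4% of all windows, in Dkk1 from 54 to 49 bases before the start and in Wif1 on the opposite strand from 232 to 227 bases before it. The table held 36 windows for 30 of the 45 members. Of these, TCF/LEF letters were found in 2 windows (Wnt11 and Wnt5b), RUNX letters in 0, the E-box in 4 (Frzb, Fzd10, Lef1 and Wnt9a) and TATAAA in 6 (Dkk1, Dkk2, Fzd1, Lef1, Wif1 and Wnt11). These matches are letters in a window and do not show that a factor binds there.

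Of 19 Wnt ligand genes, 8 were measured. In both genotypes 11 ligands (57.9%) were under the floor, where 47.9% of all 19938 genes were: Wnt1, Wnt2, Wnt2b, Wnt3, Wnt5b, Wnt6, Wnt7a, Wnt8a, Wnt8b, Wnt9b and Wnt16, with values from 3.49 to 6.15. None of the 8 was 1.5-fold apart. Of the 8, 6 were higher in the double knockout and 2 lower, with a median difference of 0.04. Among the 6 higher were Wnt3a and Wnt10b, which exceeded the floor only in the double knockout, so the floor rule fixed their direction. The 6 ligands above the floor on both arrays had a median of 0.17. Once the median of all genes was set to 0, 3 of the 8 were higher and 5 lower, with a median of -0.055.

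Wnt5a, the main ligand of planar polarity and of jaw and tongue outgrowth, gave a signal of 8.28 for wild type and 8.73 for double knockout, 1.37-fold higher. Wnt10a, made in tooth and skin epithelium and mutated in hereditary tooth loss in humans, gave 6.90 and 7.26, a difference of 0.36. Wnt4, which acts in epithelia, skeleton and at the neuromuscular junction, gave 7.60 and 7.92 at the probe set used, 0.31 higher. Its second probe set ran the same way, from 7.28 to 7.39. These 3 genes had the largest higher differences among the 6 ligands above the floor on both arrays, and each lay above the probe-set SD of 0.23 at the probe set used. With the median of all genes set to 0, Wnt4 differed by 0.22, under that SD.

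Wnt9a, a ligand of joint and cartilage development, was the ligand with the largest lower difference. Its signal was 6.82 for wild type and 6.34 for double knockout, 1.40-fold lower, with the double-knockout value close to the floor. Wnt11, a ligand of cell movement that does not usually need beta-catenin, gave 6.44 and 6.39. Wnt7b, a ligand of epithelium and bone, gave 6.29 and 6.32, so neither Wnt11 nor Wnt7b differed by more than the probe-set SD. Wnt3a and Wnt10b, which act through beta-catenin, exceeded the floor only on the second array, that of the double knockout. Wnt3a had deposited values of 5.77 and 6.23 and Wnt10b of 6.08 and 6.21, which bound their differences at 0.05 and 0.03 or more.

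Several of these ligand genes sit next to each other in the genome. In RefSeq's order of protein-coding genes 4 pairs of members had no coding gene between them: Wnt6 with Wnt10a, Wnt3a with Wnt9a, Wnt9b with Wnt3, and Wnt10b with Wnt1. Only in the first of these did both deposited values differ in one direction, Wnt6 by 0.33 (5.79 and 6.11, below the floor) and Wnt10a by 0.36. In the second pair the deposited differences ran in opposite directions, 0.46 for Wnt3a and -0.48 for Wnt9a. Wnt3 differed by -0.46 below the floor and its neighbour Wnt9b by 0.08. Wnt10b and Wnt1 differed by 0.13 and -0.09. In none of the 4 pairs were both genes above the floor on both arrays, so these deposited differences are given as values and do not show whether adjacent ligand genes differ alike.

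Nearly all Frizzled receptors were measured: 9 of 10 exceeded the floor in both genotypes, and Fzd10 in neither (6.06 and 5.85). Of the 9, 6 were higher in the double knockout and 3 lower, with a median difference of 0.23. With the median of all genes set to 0 the split was 5 and 4. The direction followed the known sequence groups of the family in part, a grouping set beside the values after they were seen. With the median of all genes set to 0, Fzd8 turned lower (-0.04) and no longer shared the direction of its relative Fzd5 (0.27).

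Fzd3 and Fzd6, the closely related receptors of planar polarity, gave nearly the same difference. Fzd3 gave 7.26 and 7.71, and Fzd6 gave 7.30 and 7.77, differences of 0.45 and 0.47. Fzd5, a receptor of epithelia and eye, gave 6.81 and 7.18, 0.37 higher, while its closest relative Fzd8 gave 7.78 and 7.84, 0.06 higher. In the group of Fzd1, Fzd2 and Fzd7, which serve both branches of the pathway, the differences were 0.36 for Fzd1 (8.18 and 8.54), -0.08 for Fzd2 (8.36 and 8.28) and 0.23 for Fzd7 (8.82 and 9.05). Fzd7 is also a Wnt receptor of muscle satellite cells, and the part of muscle in its value was not tested.

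The 2 measured genes of the group of Fzd4, Fzd9 and Fzd10 were the 2 receptors with the largest lower differences. Fzd9, a receptor of osteoblasts and brain that is also known from the neuromuscular junction, gave 6.99 for wild type and 6.31 for double knockout, 1.60-fold lower. The double-knockout value of Fzd9 was close to the floor, as that of Wnt9a was. Of all measured genes, 4.37% had a more negative difference. All 10 skeletal muscle markers were at least 2-fold lower, 9 of them under the floor in the double knockout. Their summed linear signal there was 2.53% of the wild-type sum with values raised to the floor, which is an upper limit, and the part of muscle in the Fzd9 value was not tested. Fzd4, the norrin receptor of blood vessels, gave 8.01 and 7.59, 1.34-fold lower. Beside Fzd4, the 6 endothelial markers were split 3 higher and 3 lower, and their summed linear signal on the double-knockout array was 102% of that in the wild type. The vessel genes Tek and Cldn5 were lower by 0.49 and 0.37 and Kdr and Emcn higher by 0.23 and 0.31. The part of vessels in the Fzd4 value was not tested.

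Of the co-receptors, Lrp5 differed by more than the probe-set SD and Lrp6 by less. Lrp5, whose loss lowers bone mass, gave 9.07 and 9.39, a difference of 0.32. With the median of all genes set to 0, the Lrp5 difference was 0.22, under the probe-set SD of 0.23. Lrp6, its broadly expressed relative, gave 8.84 and 8.82, a difference of -0.02.

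**Figure D2:**
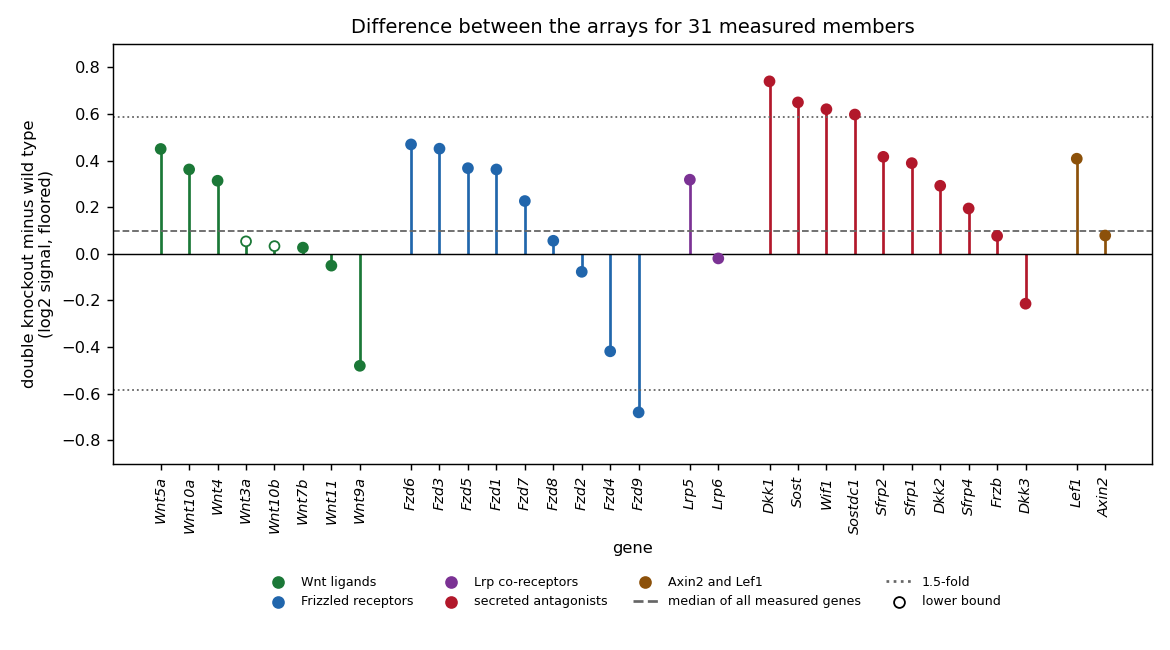
Difference between the arrays (vertical axis, double knockout minus wild type, log2 signal with values raised to the floor) for the 31 measured members (horizontal axis, ordered within class); open circles are lower bounds, the dashed line is the median of all measured genes (0.098) and the dotted lines mark 1.5-fold. The 4 points above the upper dotted line are Dkk1, Sost, Wif1 and Sostdc1, and the point below the lower one is Fzd9.

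Secreted antagonists were the class with the highest median. Of 12 genes, 10 were measured, all above the floor on both arrays, and Dkk4 (4.12 and 4.25) and Sfrp5 (5.67 and 5.95) lay below it. Of the 10, 9 were higher in the double knockout and 1 lower, with a median difference of 0.40, against 0.098 over all measured genes. With the median of all genes set to 0, 8 were higher and 2 lower (Dkk3 and Frzb), with a median of 0.30.

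Dkk1, which pulls Lrp5 and Lrp6 out of action together with Kremen proteins, had the largest difference of all 31 members. Its signal was 9.46 for wild type and 10.20 for double knockout, 1.67-fold higher, and 141 of the 10393 measured genes had a larger difference. Dkk2, which also binds the co-receptors and can act as agonist or antagonist, gave 7.30 and 7.59, 0.29 higher. Dkk3, a divergent member of the family that does not bind the co-receptors in the usual way, was the exception, with 7.83 and 7.62, 0.21 lower. Kremen1, the Dkk1 receptor, was lower as well, from 9.19 to 8.86. Thus Dkk1 and Kremen1 differed in opposite directions.

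Sost and Sostdc1 encode related secreted proteins that bind the Lrp co-receptors, and both were higher. Sost, the osteocyte product sclerostin, gave 6.58 for wild type and 7.23 for double knockout, 1.57-fold higher. Sostdc1, also called ectodin or Wise, which limits tooth number and is made around tooth germs and in oral epithelium, gave 8.84 and 9.44, 1.51-fold higher. Both therefore lay above 1.5-fold, but each fell under it with the median of all genes set to 0 (0.55 and 0.50), and Sostdc1 also after quantile normalisation (0.56).

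Antagonists that bind the Wnt proteins themselves differed by 0.08 to 0.62. Wif1, a ligand trap found at cartilage and bone surfaces, gave 8.90 and 9.52, 1.54-fold higher, and 0.52 higher on the log2 scale with the median of all genes set to 0. Sfrp1 and Sfrp2, which carry a Frizzled-like domain and are made by mesenchyme, were higher by similar amounts. Sfrp1 gave 8.53 and 8.92, a difference of 0.39. Sfrp2 gave 10.42 and 10.84, a difference of 0.42. Sfrp4, a matrix and bone antagonist, gave 8.38 and 8.58, 0.19 higher and within the probe-set SD, and Frzb, the antagonist of cartilage and joints, gave 8.50 and 8.58, 0.08 higher. The Frzb difference was below the median of all measured genes.

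**Figure D3:**
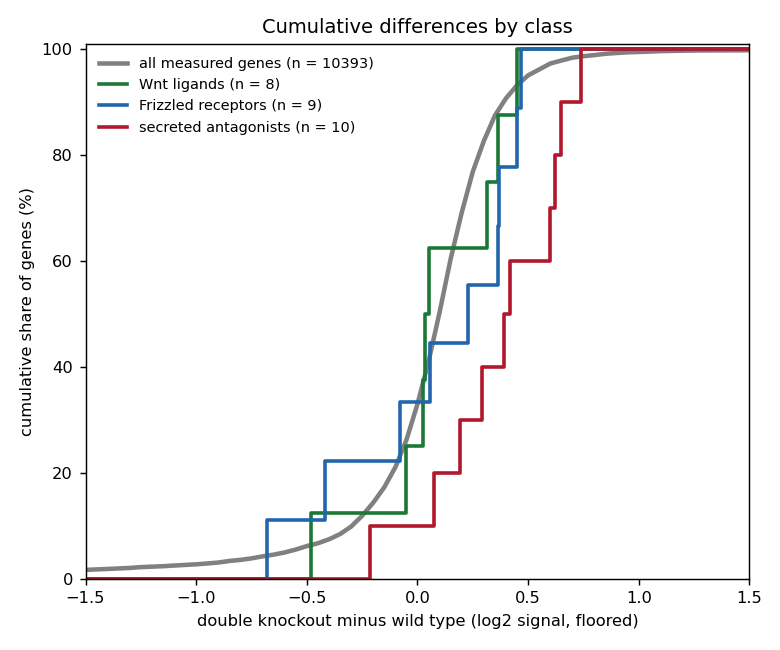
Cumulative share of genes (vertical axis, %) against the difference between the arrays (horizontal axis, double knockout minus wild type, log2 signal with values raised to the floor) for all 10393 measured genes (grey) and for the 8 measured ligands, 9 Frizzled receptors and 10 antagonists (steps). The steps of the antagonists lie to the right of the grey curve over most of the range, while those of the ligands and receptors cross it.

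Markers of the skeletal, dental and epithelial cells known to make these antagonists were compared as well. The counts in all marker lists are to be read against all measured genes, of which 67.0% were higher and 3.07% at least 1.5-fold higher. All 7 measured tooth markers were higher, 4 of them at least 1.5-fold, and their summed linear signal on the double-knockout array was 127% of that in the wild type. Among 4 measured osteocyte markers 3 were higher, with Phex from 9.54 to 10.19 and Dmp1 from 9.22 to 9.80. The fifth, Mepe, was under the floor in both genotypes, and the sum over all 5 was 135% of that in the wild type. The 5 measured osteoblast markers were all higher, with a sum of 114%. In cartilage, 4 of 5 measured markers were higher and 1, Acan, was lower by 0.32. The cartilage sum was 130% over 10 genes, while Matn1, Matn3, Comp, Col9a1 and Snorc lay below the floor. Of the 4, Ucma (6.05 and 7.36) exceeded the floor only in the double knockout, so the floor rule fixed its direction. Col11a1 was higher by 0.12, close to the median of all measured genes. The epithelial list was split, with 5 of 9 markers higher and 4 lower and a sum of 102%. Its members past 1.5-fold were the adhesion genes Epcam (1.82-fold higher) and Cdh1 (1.61-fold higher) and the oral keratin Krt4 (1.76-fold lower). In bulk tissue, more cells of a type and more RNA per cell cannot be told apart, and the part of these cell types in the antagonist values was not tested.

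The remaining marker lists moved by other amounts. All 7 salivary gland markers were at least 2-fold higher, with a sum of 903% of the wild type. Among them, Prol1 (4.77 and 10.32) exceeded the floor only in the double knockout, so the floor rule fixed its direction. Tendon and connective tissue markers were 3 higher and 5 lower among 8 measured, with a sum of 88.2% of the wild type and Scx below the floor. At least 2-fold lower were 3 of the 8, Tnmd (5.64-fold), Thbs4 (3.59-fold) and Kera (2.98-fold). Nerve markers were higher in 3 of 3 (sum 137%), and smooth muscle markers in 1 of 4 (median -0.06). Of the nerve markers, Tubb3 (6.16 and 6.67) exceeded the floor only in the double knockout, so the floor rule fixed its direction. The smooth muscle sum of 58.4% rests on Acta2, which differed by -0.93, while Myh11, Tagln and Cnn1 differed by -0.04, -0.07 and 0.08. Of the targeted genes, Myod1 gave 7.14 and 6.49 and Myf5 gave 6.31 and 4.95, the latter under the floor. Whether their probes fall within the deleted parts is not stated in the labels. The Y-linked gene Eif2s3y gave 2.38 and 6.55 and Xist 10.87 and 10.22, so sex-linked genes differed between the arrays too, and the part of this in the member values was not tested.

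**Figure D4:**
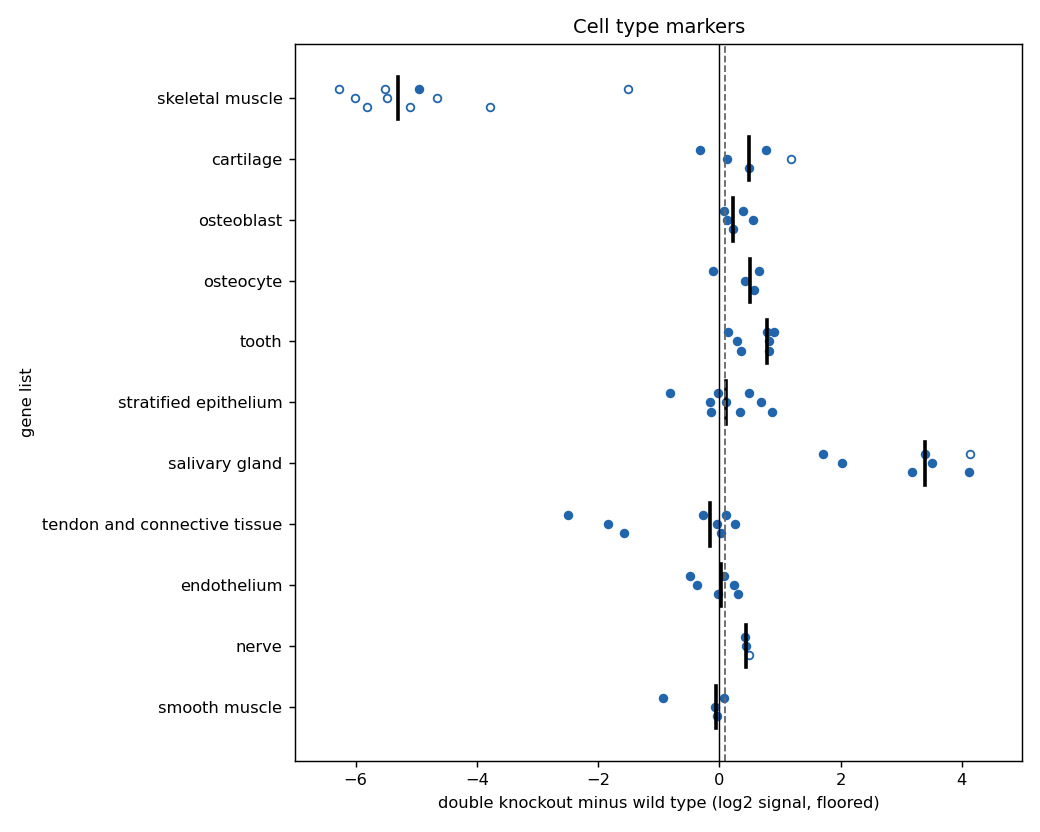
Difference between the arrays (horizontal axis, double knockout minus wild type, log2 signal with values raised to the floor) of each measured marker gene (points, open where a lower bound) by cell type (rows), with the median of each list as a black bar and the median of all measured genes (0.098) as a dashed line. Skeletal muscle markers lie far to the left and salivary gland markers far to the right, and all 7 tooth markers lie right of 0.

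Axin2 and Lef1 were included as a direct feedback target and a nuclear partner of beta-catenin signalling. Axin2, a scaffold of the complex that degrades beta-catenin and a widely used read-out of the pathway, gave 6.53 and 6.61. Its difference of 0.08 was below the median of all measured genes and turned to -0.02 when that median was set to 0. Lef1, which is needed for tooth development and is itself induced by Wnt signals, gave 6.72 and 7.13, 1.33-fold higher. The read-out Axin2 thus differed by less than the probe-set SD, and Lef1 by more.

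The other genes of the pathway were taken from 7 lists with 93 genes, of which 82 were measured, 10 had neither value above the floor and 1, Ndst1, is not analysed here. Of the 82, 66 were higher and 16 lower, where 67.0% of all measured genes were higher and 32.2% lower, and their median difference was 0.18. At 1.5-fold 1 was higher (Rspo4) and 1 lower (Musk), against 3.07% and 5.11% of all measured genes. None was shown to be 2-fold apart, although Musk, whose difference is only a lower bound, may be. The counts by sign in the lists that follow are to be read against the same 67.0%.

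The R-spondins, their Lgr receptors and the ubiquitin ligases Znrf3 and Rnf43 form the axis that controls how much Frizzled stays on the cell surface. All 9 were measured and all 9 were higher (median 0.23, or 0.13 with the median of all genes set to 0). Of these, Rspo2 and Rspo3 exceeded the floor only in the double knockout, so the floor rule fixed their direction. The 7 above the floor on both arrays had a median of 0.24. Rspo4, an R-spondin best known from nails and also from tooth development, gave 6.97 and 7.85, 1.83-fold higher. Rnf43, which removes Frizzled receptors, and Lgr6, a receptor of epithelial progenitors, were both higher by 0.52. Rspo1 was higher by 0.24 and Lgr4 by 0.21.

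In the list of Wnt secretion and carriers, 6 of 8 measured genes were higher (median 0.25). The heparan sulphate carriers Gpc6 and Sdc1 were higher by 0.46 and 0.43 and the Wnt deacylase Notum, a feedback antagonist, by 0.42 (6.43 and 6.86). The related carriers Gpc4 and Gpc3 were lower by 0.26 and 0.09. Glypicans therefore did not share a direction.

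In the list of non-canonical receptors and planar polarity, 14 of 15 measured genes were higher (median 0.17). With the median of all genes set to 0 the median of the list was 0.07. Among the 14, Ror1, Ryk, Daam1, Rhoa and Rac1 differed by less than the median of all measured genes, 0.098. The polarity cadherins Celsr1 and Celsr2 were higher by 0.54 and 0.46 and the membrane protein Vangl2 by 0.51. The polarity genes Vangl1, Prickle1, Prickle2 and Daam1 were higher by 0.33, 0.29, 0.22 and 0.07, and Celsr3 lay below the floor. The small GTPase Rhoa was higher by 0.07. The exception was Musk, the receptor kinase of the neuromuscular junction, which carries a Frizzled-like domain and gave 7.07 for wild type and a value under the floor for double knockout, at least 1.85-fold lower. Skeletal muscle makes Musk, and its part in this value was not tested.

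Of 7 measured extracellular modulators 5 were higher and 2 lower (median 0.28). The sulphatase Sulf1 was higher by 0.44 and Igfbp4, an insulin-like growth factor binding protein that also inhibits Wnt, by 0.37, while the Wnt cofactor Cthrc1 was lower by 0.38 and Kremen1 by 0.33. Kremen2, Cer1, Dkkl1, Draxin and Ndp lay below the floor. The remaining Lrp4, Sulf2 and Apcdd1 were higher by 0.30, 0.28 and 0.25. The genes of this list therefore did not all share a direction.

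The lists of components inside the cell had medians of 0.05 and 0.12. Of 16 measured genes of the destruction complex and Dishevelled, 10 were higher and 6 lower (a median of -0.053 with the median of all genes set to 0). Ctnnb1, which encodes beta-catenin itself, gave 11.19 and 11.59, 0.39 higher. Axin1 and Tnks were higher by 0.34 and 0.28 and Dvl1 was lower by 0.29. Among 14 nuclear effectors and co-repressors 11 were higher and 3 lower with the co-repressor Tle3 higher by 0.45, Tcf7l1 by 0.35, Pygo1 by 0.34 and Ctbp1 by 0.04, and the beta-catenin inhibitor Ctnnbip1 lower by 0.30.

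Of 13 measured transcriptional targets, 11 were higher and 2 lower (median 0.17), none by 1.5-fold. The gap junction gene Gja1, abundant in bone cells, gave 10.63 and 11.15, 0.52 higher. Bambi, Tnfrsf19 and Nkd2, all feedback targets in other settings, were higher by 0.50, 0.44 and 0.43. Most targets therefore lay on the higher side, as 67.0% of all measured genes did.

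**Figure D5:**
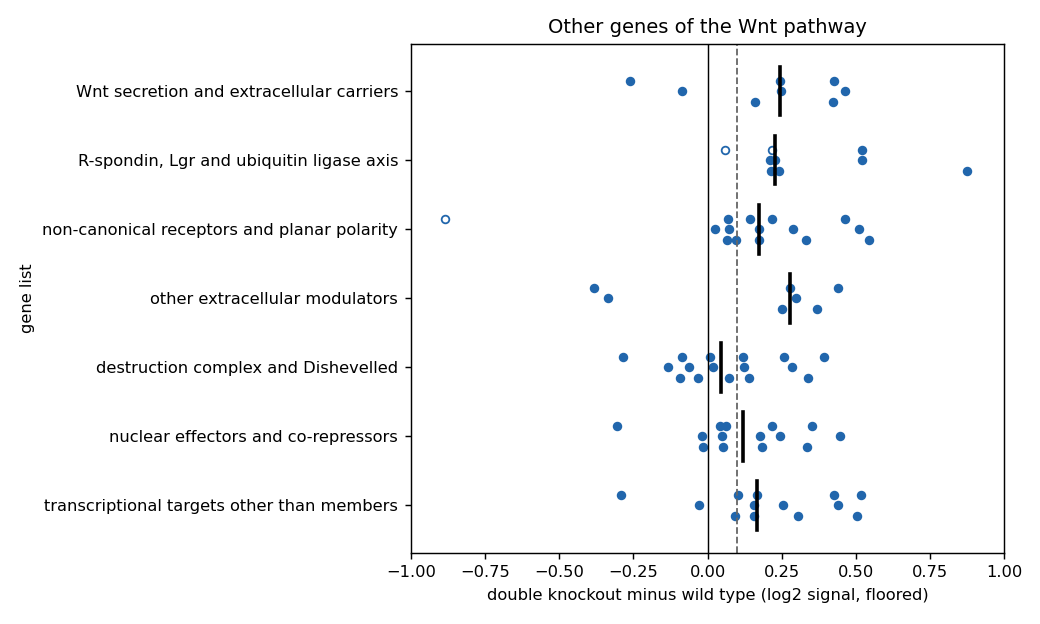
Difference between the arrays (horizontal axis, double knockout minus wild type, log2 signal with values raised to the floor) of each measured gene (points, open where a lower bound) in the 7 lists of other Wnt pathway genes (rows), with the median of each list as a black bar and the median of all measured genes (0.098) as a dashed line. Rspo4 is the point farthest to the right and Musk, a lower bound, the point farthest to the left.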

How the data were processed

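Mandible RNA of 2 groups with 1 array each was compared. The authors deposited 1 log2 signal per probe set (35557 probe sets); the base was read from the values, which ran from 1.42 to 13.35. MAS5 is named, without a version, in the submitters' processing notes. The background correction, the scaling between arrays and the step that gave logarithms are not given in the sources used here. The arrays were used as deposited, with medians of 5.48 and 5.45 and a Pearson r of 0.980 across probe sets. The number of arrays limits the precision.

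Genes came from GEO's platform annotation. Of the probe sets 21789 named 1 gene, 1621 several (0 of them a member) and 12147 none. Where a gene had several probe sets, the one with the highest linear signal averaged over both arrays stood for it. All 45 member symbols matched RefSeq (GRCm38.p6), used only for names, gene order and promoter windows. In these windows TATAAA lay 35 to 25 bases before the start at similar frequency for genes of both strands (292 and 284 matches), so sequences run along the gene.

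Members and lists were chosen with earlier results of these data known. All measured members are named, and of each pathway list the 4 genes with the largest differences and the one with the highest signal; others were named after their values were seen. Alternatives were a median difference of 0, quantile normalisation, a lower floor (25th percentile), a higher one (75th) or none, the median over probe sets, and 1.5-fold and 3-fold thresholds. Computations used Python 3.11.15, pandas 2.3.3 and numpy 2.4.6 and were tested on simulated data. The simulation had less noise than the probe-set SD and moved only genes with a wild-type signal well above the floor. Only the higher differences were required to be recovered, so lower differences and genes near the floor were not checked in this way.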

Additional observations from a re-analysis of the deposited data

How the results depend on the processing

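Of 31 measured members, 25 kept their sign under the alternatives that gave them a value. The other 6 (Axin2, Frzb, Fzd8, Wnt10b, Wnt3a and Wnt7b) changed sign once the arrays were centred on the median of all genes. Centring also gave a median of -0.055 for the ligands and -0.053 for the destruction complex list, 1 member at least 1.5-fold higher and 13 members lower, because it subtracts 0.098 from every gene. Under the higher floor, the 75th percentile, 17 members were measured: 13 were higher, 4 lower and 0 at least 1.5-fold lower, the ligand median over 2 genes was 0.32, and Axin2 and Lef1 gave no value. Under the lower floor, the 25th percentile, 13 members were lower, and without a floor 14, since more genes were counted. Wnt3a, a bound of 0.05, differed by 0.46 under both. Members past the threshold numbered 4 higher and 1 lower at 1.5-fold, and 0 at 2-fold and 3-fold. Over all measured genes, 284 were at least 2-fold lower and 53 higher. These became 134 and 20 under the higher floor, 431 lower without a floor, 531 and 319 at 1.5-fold, and 161 and 18 at 3-fold. The antagonist median ranged from 0.30 to 0.40 over the alternatives. No paired analysis was possible because each genotype has 1 array. Members under the floor have no usable difference.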
